A study of Homo sapiens with 6 samples.

Results

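The miR-191 and miR-425 hairpins lie side by side in one intron of DALRD3 on chromosome 3, and each gives a 5p and a 3p mature arm. The members described here are the rows of the deposited tables whose identifier is hsa-miR-191-5p, hsa-miR-191-3p, hsa-miR-425-5p or hsa-miR-425-3p, 4 of 2576 mature miRNAs, taken by name and not by their values. Levels are given as CPM, the count scaled to a common total of 1000000 miRNA counts in each library. All 4 arms were among the 430 miRNAs kept by the filter on low values, 5 CPM or more in 3 or more libraries.

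Small RNA was sequenced from MIO-M1, an established human Müller glial cell line (genotype WT), and from the extracellular vesicles (EV) it released. The whole cell group held 3 libraries, from passages 22, 24 and 26, and the EV group held 3 libraries, from passages 23, 25 and 27. Libraries are named by passage, so that P22, P24 and P26 are whole cells and P23, P25 and P27 are EV. The cells were grown in DMEM with FCS, and EV were collected from medium without serum or depleted of vesicles, as the labels and the methods respectively state. EV were treated with RNase A before extraction, per the methods, and the RNA kits for cells and EV differed. All samples come from 1 cell line, and the passages of the groups do not coincide. The p-values therefore measure the spread between libraries of this line, where passage and sample preparation cannot be told apart.

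DALRD3 encodes a protein with a tRNA-binding DALR domain, which takes part in tRNA modification. Its intronic hairpins are transcribed together and then cut one by one by the nucleases Drosha and Dicer. One arm of each duplex, the guide, is usually kept in Argonaute, whilst the opposite arm, the passenger, is usually degraded. miR-191-5p is present in many cell types and is often used as a reference in qPCR of small RNA, and miR-425-5p is used in the same way.

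The mature sequences from RefSeq are shown because the arms of a hairpin differ in base composition and in seed. The capitals mark the seed, bases 2 to 8 from the 5′ end, which sets the target sites of a miRNA. RefSeq entries were matched for 3 of the 4 arms, on build GRCh38.p14, minus strand, and hsa-miR-425-5p was not matched.
hsa-miR-191-5p (chr3:49020672-49020694): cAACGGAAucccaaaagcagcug
hsa-miR-191-3p (chr3:49020631-49020652): gCUGCGCUuggauuucgucccc
hsa-miR-425-3p (chr3:49020159-49020180): aUCGGGAAugucguguccgccc
The 3 seeds differed from each other, and 0 other mature human miRNAs in the RefSeq table shared any of them. The GC content was 52.2% in miR-191-5p and 63.6% in each of the 3p arms.

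The deposited tables place the arms on the minus strand of chromosome 3, with miR-191-5p from 49058105 to 49058127 and miR-425-5p from 49057632 to 49057654. The tables name no genome build, and these positions differ from those of GRCh38. In GENCODE 29 on GRCh38, the MIR191 hairpin runs from 49020618 to 49020709 and the MIR425 hairpin from 49020148 to 49020234, with 383 bases between them. Both lie in the same intron in 4 transcripts of DALRD3, which in one transcript runs from 49018319 to 49020845. MIR191, but not MIR425, also lies opposite an intron of NDUFAF3 on the plus strand. Within 1 Mb on either side, the only other miRNA past the filter was miR-4443, with 3, 140 and 48 counts in P22, P24 and P26 and 47, 0 and 0 in P23, P25 and P27.

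The total count ran from 396025 in P22 to 3990900 in P24, and from 1225541 in P23 to 3134561 in P27. Where an arm had 0 counts, levels of up to 3 counts were held possible, which is 1.47 CPM in P25 and 0.957 CPM in P27. Intervals and these limits cover counting error only, as no removal of duplicate molecules is stated. The 5 listed miRNAs abundant in Müller glia had a summed level of 251904 to 310705 CPM in whole cells and 127204 to 169867 CPM in EV. Of these, let-7a-5p and miR-125b-5p made up most of the sum, and miR-9-5p had 12517, 8161 and 7471 CPM in P22, P24 and P26 but 22652, 9271 and 22542 CPM in P23, P25 and P27. In the other direction, miR-204-5p had 13883, 7882 and 7630 CPM in whole cells and 1862, 2647 and 3106 CPM in EV. miR-181a-5p had 20567, 11158 and 14999 CPM in whole cells and 4212, 2087 and 1078 CPM in EV. The 4 listed neuron and photoreceptor miRNAs summed to 227 to 333 CPM in whole cells and 1151 to 1218 CPM in EV. Most of this was miR-182-5p and miR-183-5p, with miR-124-3p at 0 throughout. miR-96-5p had 25.3, 7.27 and 6.39 CPM in P22, P24 and P26 and 0, 44.6 and 0 CPM in P23, P25 and P27. The 6 listed blood miRNAs summed to 164 to 1163 CPM in whole cells and 1549 to 2250 CPM in EV. miR-486-5p made up most of it, with 164, 875 and 1161 CPM in whole cells and 1217, 1711 and 1197 CPM in EV. Of the list, 2 miRNAs, miR-451a and miR-144-3p, were at 0 in all whole cell libraries, and miR-144-3p also in P23 and P27. In P23, P25 and P27 miR-451a had 131, 33.8 and 135 CPM. miR-142-3p had 0, 0 and 0.799 CPM in P22, P24 and P26 and 270, 431 and 217 CPM in EV. The part of these differences in the values of miR-191 and miR-425 was not tested.

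miR-191-5p, the main product of the locus, was abundant in both sources and its level did not separate them. In whole cells it had 1939 counts in P22, 49082 in P24 and 14981 in P26, or 4896, 12298 and 11964 CPM. In EV it had 6674 counts in P23, 34927 in P25 and 32224 in P27, or 5446, 17132 and 10280 CPM. P22 and P23 were the lowest library of their group, and the remaining libraries of both groups lay within 10280 and 17132 CPM. By rank, miR-191-5p stood between 18th and 37th in whole cells and between 11th and 27th in EV.

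The mean level of miR-191-5p was 9720 ± 4181 CPM (SD, n = 3) in whole cells, whilst EV had a mean of 10953 ± 5872 CPM (SD, n = 3). The difference was smaller than the spread between replicates (two-sided exact permutation test, p = 0.9). Here and below, these tests cannot give a p under 0.1 with 3 libraries against 3. edgeR gave a log2 fold change of EV against whole cells of 0.04 (standard error 0.53), with an adjusted p of 0.977. The 95% interval of the fold change ran from -1.20 to 1.29 on the log2 scale, so a change of about the size of 1 log2 unit in either direction was not detectable with these libraries. Only 9 of the 430 tested miRNAs had a fitted fold change nearer to 0.

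miR-425-5p, the guide arm of the neighbouring hairpin, was similarly abundant in the whole cell libraries and varied widely between the EV libraries. It had 672 CPM in P22, 696 CPM in P24 and 624 CPM in P26, from 266, 2779 and 781 counts. In EV it had 1115 CPM in P23, 567 CPM in P25 and 164 CPM in P27, from 1366, 1155 and 514 counts. The highest whole cell library exceeded the lowest 1.12-fold, whereas the highest EV library exceeded the lowest 6.80-fold. The exact binomial 95% intervals of the EV levels, 1056 to 1175, 534 to 600 and 150 to 179 CPM, did not overlap. One EV library lay above and the other EV libraries lay below all 3 whole cell libraries.

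Whole cells had a mean miR-425-5p level of 664 ± 36.9 CPM (SD, n = 3), compared with 615 ± 477 CPM (SD, n = 3) for EV, and the two-sided exact permutation test gave p = 0.7. edgeR gave a log2 fold change of -0.09, a standard error of 0.66 and an adjusted p of 0.954, with a 95% interval from -1.62 to 1.45. Without P23 it was -1.02 and without P27 it was 0.12, and neither fit passed the test.

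miR-425-3p, the passenger arm, was the only member whose groups did not overlap. It had 85.9 CPM in P22, 100.98 CPM in P24 and 113 CPM in P26, from 34, 403 and 142 counts. In EV it had 45.7 CPM in P23, from 56 counts, and 0 counts in both P25 and P27. P22, P24 and P26 averaged 100.1 ± 13.8 CPM (SD, n = 3) and EV 15.2 ± 26.4 CPM (SD, n = 3). At the whole cell mean, P25 would have held 204 counts and P27 314 counts. Every EV library thus lay below every whole cell library, which was also the case, in one direction or the other, for 48.4% of the 430 miRNAs tested.

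The two-sided exact permutation test of the CPM of miR-425-3p gave p = 0.1, the smallest that the design allows, and 0.4 after Benjamini-Hochberg adjustment over the 4 arms. The log2 fold change by edgeR was -2.62 with a standard error of 2.14 and an adjusted p of 0.441, so the fall did not pass. Without P23 both EV libraries left are at 0. By group means the arm was then 82.4-fold lower in EV than in whole cells, with 3 counts assumed in each EV library. From the lowest whole cell library to the highest of these limits it was 58.3-fold. The fit of the 5 libraries had an adjusted p of 0.0120 by edgeR. In that fit the arm passed the filter only through the whole cell libraries, so this p is no support for a fall.

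miR-191-3p, the passenger arm of miR-191, was rarer and its groups overlapped. The whole cell libraries P22, P24 and P26 had 50.5, 24.1 and 31.9 CPM, from 20, 96 and 40 counts. For the EV, P23 had 39.2 CPM, from 48 counts, within the range of whole cells, whilst P25 and P27 again had 0 counts. The means were 35.5 ± 13.6 CPM (SD, n = 3) for whole cells and 13.1 ± 22.6 CPM (SD, n = 3) for EV. At the whole cell mean, P25 would have held 72.4 counts and P27 111 counts.

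The log2 fold change of miR-191-3p was -1.27 by edgeR (standard error 2.15, adjusted p = 0.733), and the two-sided exact permutation test of its CPM gave p = 0.3. Without P23 the arm was 29.2-fold lower in EV by group means, with 3 counts assumed in each EV library. From the lowest whole cell library to the highest of these limits it was 16.3-fold. The adjusted p by edgeR was 0.0120. Here too the arm passed the filter only through the whole cell libraries, so this p is no support for a fall. The results for both 3p arms therefore turn on P23, the one EV library in which they were counted.

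Of the 4 arms, 0 passed both call limits (adjusted p under 0.05 by edgeR, with a log2 fold change of 2.5 or more in size), where 21.6% of the 430 miRNAs did. With no limit on the fold change 0 of the 4 arms passed, against 28.6% of all miRNAs tested. None of the arms reached an unadjusted p below 0.05 with edgeR, as 154 of the 430 miRNAs did. By DESeq2 0 of the 4 arms passed both call limits, against 95 of the 430 miRNAs. Since levels are shares of a library, a lower CPM does not tell apart less of an arm from more of other miRNAs, nor fewer vesicles that carry it from less of it per vesicle.

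**Figure D1:**
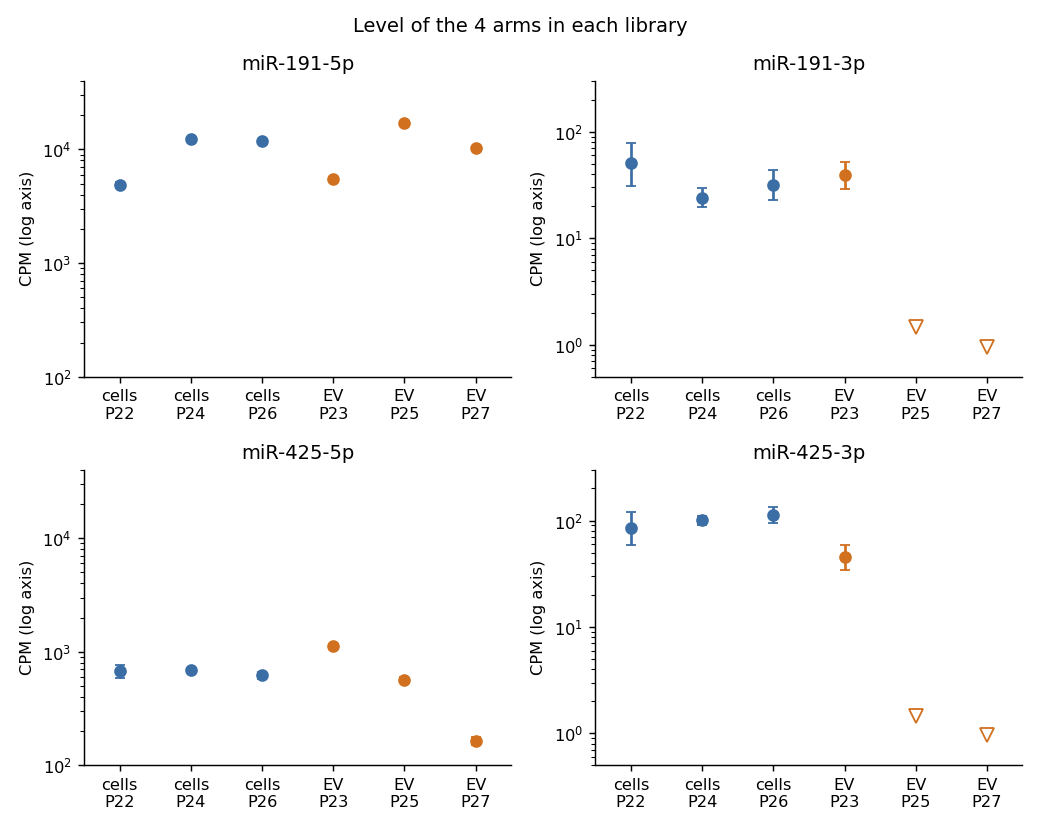
CPM (log axis) of each arm in the 6 libraries, with whole cells in blue and EV in orange. Bars are exact binomial 95% intervals (often smaller than the point) and open triangles mark the limit of 3 counts where the count was 0. The 5p arms were counted in every library, miR-425-5p ranged from 164 to 1115 CPM in EV, and both 3p arms were at 0 in P25 and P27.

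The balance of the arms within a hairpin does not depend on the library total. For miR-425, the 3p arm made up 11.3% of both arms in P22 (exact Clopper-Pearson 95% interval 7.98 to 15.5), 12.7% in P24 (11.5 to 13.9) and 15.4% in P26 (13.1 to 17.9). In EV it made up 3.94% in P23 (2.99 to 5.08), 0 of 1155 counts in P25 (0 to 0.319) and 0 of 514 counts in P27 (0 to 0.715). Each EV library thus had a smaller share than every whole cell library. Over hairpins with at least 100 counts, the median share of the less counted arm was separated in the same way (values below). How many hairpins were so separated was not counted.

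The interval of P23 lay below that of every whole cell library, though it covers counting error only and P23 was the only EV library with miR-425-3p counts. The share averaged 13.1% ± 2.06 (SD, n = 3) over whole cell libraries and 1.31% ± 2.27 (SD, n = 3) over EV libraries. The two-sided exact permutation test gave p = 0.1, the smallest possible, and 0.3 after adjustment over the 3 ratios tested within the locus.

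For miR-191 the 3p arm was a minor product in every library. It made up 1.02% in P22 (0.625 to 1.57), 0.195% in P24 (0.158 to 0.238) and 0.266% in P26 (0.190 to 0.362). In EV the share was 0.714% in P23 (0.527 to 0.946), 0 of 34927 counts in P25 and 0 of 32224 counts in P27. P22 and P23 had the highest shares. The ranges of whole cells and EV overlapped, and by a two-sided exact permutation test p was 0.5.

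At the 3p share of P23, P25 would have held 249 counts of miR-191-3p and P27 230 counts, and the same calculation gave 45.5 and 20.2 counts of miR-425-3p. Zeros were common among less counted arms in EV. Of 110 such arms past the filter, whose opposite arm had more counts, 25 were at 0 in P23, 36 in P25 and 54 in P27, against 6, 0 and 3 in P22, P24 and P26. The pattern of both 3p arms, counted in 4 libraries and at 0 in P25 and P27, was found for 11 of the 110 (10.0%), these arms included. Whatever the other libraries held, 25 of the 110 were at 0 in both P25 and P27. An arm at 0 in both passes the filter only with counts in whole cells, so the filter partly sets this contrast.

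Over all hairpins with at least 100 counts in a library, the median share of the less counted arm was 1.28%, 1.54% and 1.77% in P22, P24 and P26. It was 0.433% in P23, 0.0119% in P25 and 0 in P27. Lower passenger shares in EV were thus not particular to miR-425. GC content moved with the same contrast. Slopes on mature GC were fitted to log2 levels taken relative to the mean of each miRNA over all libraries. For each 10 percentage points they were -0.36, -0.32 and -0.41 in P23, P25 and P27, and 0.52 and 0.65 in P24 and P26. Such slopes are relative, so a fall in some libraries goes with a rise in others. In P22 the slope was -0.07. With this trend removed the log2 fold change was -1.59 for miR-425-3p and -0.39 for miR-191-3p, and neither passed the test.

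**Figure D2:**
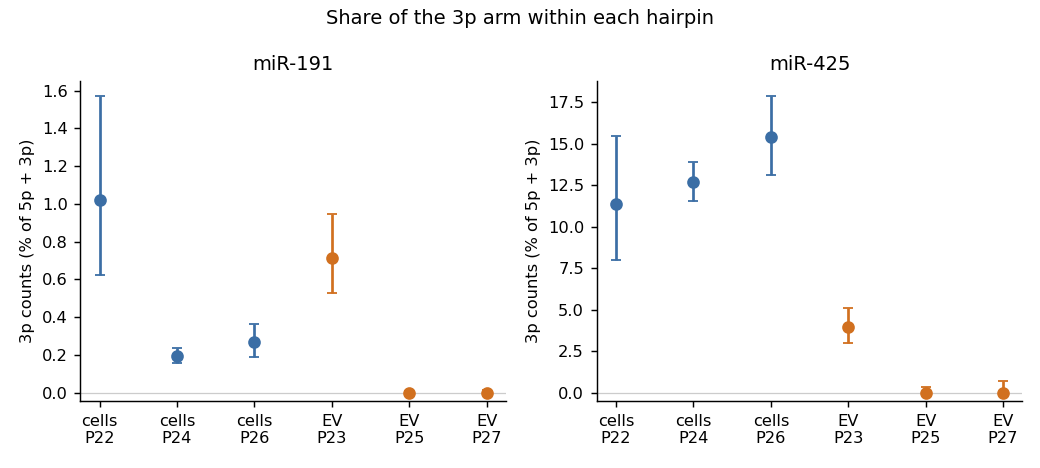
Share of 3p counts among the counts of both arms, in percent, for miR-191 (left) and miR-425 (right) in the 6 libraries, with different vertical scales. Points are libraries (whole cells blue, EV orange) and bars exact binomial 95% intervals. All EV shares of miR-425 lie below the lowest whole cell share of 11.3%, whereas the 0.714% of miR-191 in P23 lies within the whole cell range. Median shares of the less counted arm over hairpins with at least 100 counts were separated as those of miR-425 were.

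The guide arms of the hairpins were then compared with each other within each library, as both come from one intron. miR-191-5p had 7.29 times the counts of miR-425-5p in P22, 17.7 times in P24 and 19.2 times in P26. In EV the ratio was 4.89 in P23, 30.2 in P25 and 62.7 in P27. The EV libraries lay on both sides of the whole cell libraries, and the lowest ratios were those of P22 and P23, which also had the lowest total counts. P26 had nearly the total of P23 (1252144 against 1225541 counts), and a link between ratio and depth was not tested.

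On the log2(CPM + 4) scale the ratio averaged 3.75 ± 0.77 (SD, n = 3) over whole cell libraries and 4.38 ± 1.88 (SD, n = 3) over EV libraries. The difference of 0.63 was smaller than the spread in either group (two-sided exact permutation test, p = 0.6), with values of -0.15 without P27, 0.18 without P22, 0.36 without P25 and 1.67 without P23. A difference between the changes of the guide arms from whole cells to EV was thus not detectable here, whilst the ratio itself differed between libraries.

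**Figure D3:**
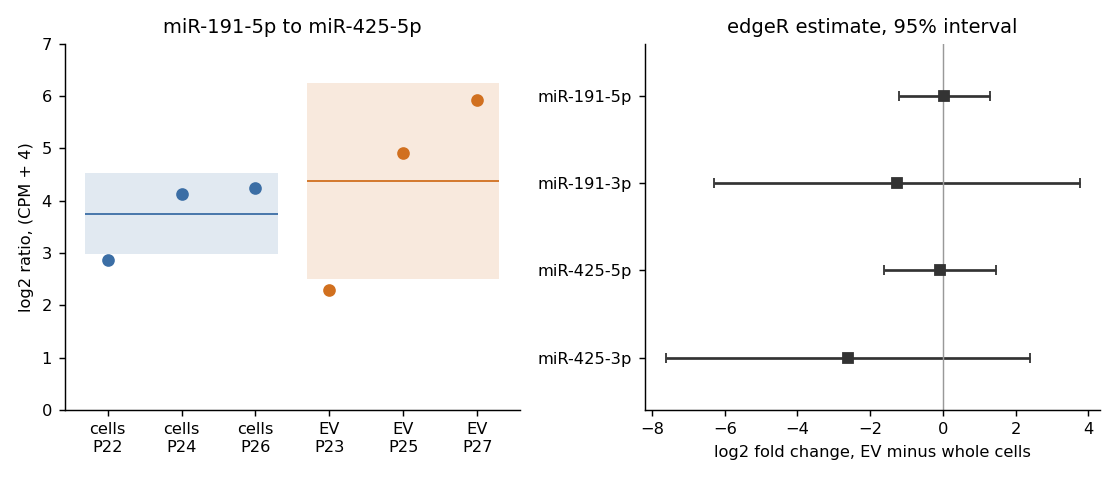
Left, log2 ratio of miR-191-5p to miR-425-5p (CPM + 4) in each library, with the group mean (line) and SD (band) for whole cells (blue) and EV (orange). Right, log2 fold change of each arm in EV against whole cells by edgeR with its 95% interval. The EV ratios, from 2.28 to 5.94, enclose those of whole cells, and all 4 intervals include 0.

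The pair was set beside other neighbouring hairpins, taken as consecutive hairpins on one strand, each by its more counted arm, with starts at most 10 kb apart, both past the filter and over 3 counts in some library of each group. Of 71 such pairs, 34 lay off chromosome 14. The fold changes by edgeR of miR-191-5p and miR-425-5p differed by 0.13 on the log2 scale, and the median difference over the pairs was 2.07. A smaller difference was found for 1 pair, miR-382-5p and miR-134-5p (0.01), and the largest for miR-411-5p and miR-299-5p (7.98). The difference for miR-191-5p and miR-425-5p depended on P23, without which it was 1.32, and 19 of 57 pairs had a smaller one. It was 0.13 without P22 and between 0.26 and 0.36 without P24, P25, P26 or P27, and at most 6 pairs then had a smaller one. These values were calculated after the data had been seen.

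Calculated from the mean log2 ratio of the libraries, the difference for miR-191-5p and miR-425-5p was 0.63, with a median of 2.02 over the pairs, and 12 pairs had a smaller one. The SD of the ratio was 0.77 in whole cells and 1.88 in EV, against medians of 0.55 and 1.53 over the 71 pairs, with 25 and 23 pairs above it. Over all 6 libraries the SD was 1.33, below the median of 1.68, and 47 pairs had a larger one. This is a description, since pairs of one cluster share a transcript and are not independent.

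**Figure D4:**
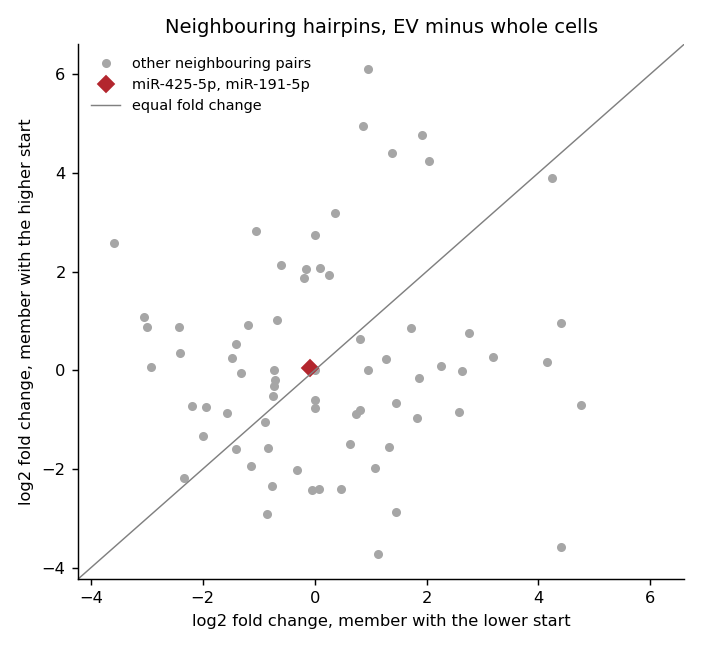
log2 fold change in EV against whole cells by edgeR for the more counted arms of 71 pairs of neighbouring hairpins, with the lower start on the horizontal axis. The red diamond marks miR-425-5p and miR-191-5p, close to the line of equal fold change and to 0, whereas the median pair differed by 2.07. Without P23 the arms differed by 1.32.

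Both guide arms belong to a list of 14 miRNAs often used as references, and the spread over all 6 libraries was compared on TMM-scaled log2(CPM + 4). The SD was 0.75 for miR-191-5p and 0.92 for miR-425-5p, with a median of 0.83 over the list and 1.27 over the 430 miRNAs. miR-191-5p ranked 66th and miR-425-5p 105th from the most even. Of the 100 most abundant miRNAs, 33 varied less than miR-191-5p.

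The sources of this spread differed between the guide arms. For miR-191-5p the SD was 0.98 within whole cells and 0.65 within EV, and leaving out P22 lowered the SD over all libraries to 0.51. For miR-425-5p it was 0.22 within whole cells and 1.38 within EV, and without P27 the SD over all libraries was 0.52. Of the list, 4 of 14 had an adjusted p below 0.05 by edgeR (miR-16-5p, higher in EV by 1.70 on the log2 scale, and miR-103a-3p, miR-423-3p and miR-484, with log2 fold changes of -1.33, -2.25 and -3.07), against 28.6% of all miRNAs. miR-26a-5p (SD 0.37), miR-93-5p (0.47) and miR-25-3p (0.51) were the most even of the list.

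**Figure D5:**
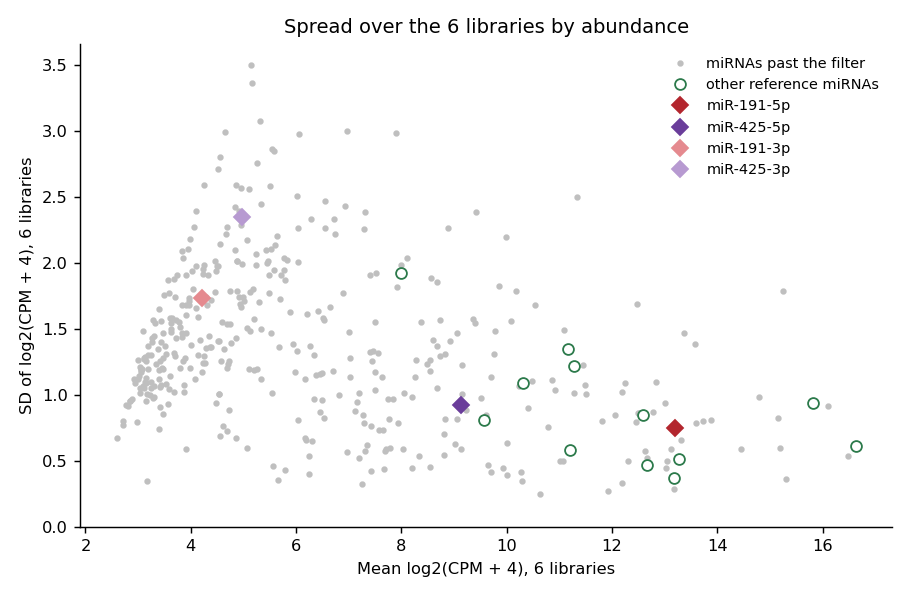
SD of log2(CPM + 4) over the 6 libraries against its mean for 430 miRNAs (grey), the other reference miRNAs (open green circles) and the 4 arms (diamonds). miR-191-5p (SD 0.75) and miR-425-5p (SD 0.92) lie below the median SD of 1.27 and their 3p arms above it.

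The miRNAs whose pattern over the 6 libraries was most like that of miR-191-5p were miR-342-3p, miR-134-5p and miR-574-3p, with a root mean square difference of 0.21, 0.26 and 0.35 on the centred log2(CPM + 4) scale. miR-342-3p, from an intron of EVL, had 21559, 40801 and 43465 CPM in P22, P24 and P26 and 26538, 58845 and 46263 CPM in P23, P25 and P27. P22 and P23 were lowest in their group, which the choice by pattern favours. Those most like miR-425-5p were miR-135b-3p (0.32), miR-345-5p (0.35) and miR-221-5p (0.44). miR-345-5p had 25.3, 32.8 and 31.9 CPM in whole cells and 47.3, 14.7 and 0.957 CPM in P23, P25 and P27. The order among the EV libraries was that of miR-425-5p, which the choice by pattern also favours, and the level in P27 is that of 3 counts. The guide arms of the locus were further from each other, with a difference of 1.22 that placed miR-425-5p 169th from miR-191-5p.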

How the data were processed

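Adapters were trimmed by the authors with Cutadapt, reads were aligned, and each deposited table holds raw counts of the reads that fell on each mature miRNA of 1 library. Per the file headers, counting used featureCounts 1.5.0-p1 (strand option 1) on miRBase release 20 after Bowtie 1, whereas the methods name Bowtie2 and a later release. Samples were grouped by the fraction in their labels and named by passage. Between any pair of libraries, chi-square was at least 41.9 per degree of freedom, so none was a copy of another. The members and lists were chosen with earlier results of these data known.

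Counts past the filter were scaled by TMM and tested across all 430 miRNAs with edgeR 4.0.16 (quasi-likelihood test, Benjamini-Hochberg adjustment) in R 4.3.3. The standard error was the log2 fold change divided by the square root of F. DESeq2 1.42.0, the tool named in the methods, was an alternative. Both were tested on simulated data. Single values were compared by two-sided exact permutation tests (scipy 1.17.1). Other alternatives covered scaling, the filter, the pseudocount, GC content and each library left out. The miRNAs named beside the 4 arms are the reference list, the 3 nearest patterns of each guide arm, those past the filter within 1 Mb, and the neighbouring pairs with the largest and smallest difference. miR-342-3p and miR-345-5p were chosen for full values after these were seen.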

Additional observations from a re-analysis of the deposited data

How the results depend on the processing

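No paired analysis was possible because the labels number no replicates and the groups share no passage. Of 47 alternative fits of the 4 arms, 2 had an adjusted p below 0.05 by edgeR, those of both 3p arms without P23. In these 2 fits the arms passed the filter only through the whole cell libraries. The log2 fold change of miR-191-5p was near 0 and took the opposite sign with DESeq2 (-0.11), RLE factors (-0.11) and no filter (-0.13). With each library left out it ran from -0.34 to 0.30 for miR-191-5p, from -1.02 to 0.12 for miR-425-5p, from -9.20 to -0.83 for miR-191-3p and from -10.78 to -2.15 for miR-425-3p, where the lowest value of each 3p arm rests on EV libraries at 0 and is no bound. Under the same omissions the difference in 3p share of miR-191, EV minus whole cells, ran from -0.494 to 0.00727 percentage points (highest without P22), that of the log2 ratio of the guide arms from -0.15 to 1.67 (lowest without P27, highest without P23), and the SD of miR-425-5p from 0.52 to 1.03. The difference in 3p share of miR-425 kept its direction, from -13.1 to -10.7 points. The 93 miRNAs past the limits became 25 at an adjusted p below 0.01 and 207 with no filter, and from 22 to 104 with a library left out, with 49, 22 and 27 without P22, P24 and P26. The GC alternative, for which 90.7% of tested miRNAs had a mature sequence, could not be run for miR-425-5p. On the count of miRNAs it was added after the data had been seen and gave 66. Depth limited miR-425-3p to 34 counts and miR-191-3p to 20 counts in P22.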
